A study of Mus musculus with 6 samples.

Results

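The Hoxa genes lie side by side in 1 of the 4 mammalian Hox clusters, on chromosome 6 of the mouse. Of the 9 genes set for this account, 8 had a probe set that the platform annotation assigns to that gene alone: Hoxa2, Hoxa3, Hoxa4, Hoxa5, Hoxa6, Hoxa7, Hoxa9 and Hoxa10, of 22180 genes with such a probe set. Each had 1 such probe set, so no choice between probe sets was needed. Hoxa11 had none, because both of its probe sets are also listed for the antisense RNA Hoxa11os. All 8 lay above the filter on dim signals, a mean over the 6 arrays at or above the 25th percentile of genes, and were among the 16635 genes tested. The gene identifiers of the 8 probe sets carry the same symbols in a RefSeq table of the mouse genome (GRCm38.p6).

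The study measured gene expression in sorted LT-HSC (long-term haematopoietic stem cells), rare marrow cells able to restore the whole blood system of a transplanted animal. The first group was 3 samples expressing NPMc+, a mutant nucleophosmin that is displaced to the cytoplasm and recurs in acute myeloid leukaemia, and the second was 3 control samples. In both groups the cells came from bone marrow of the strain C57/BL6, were sorted 4 months after a bone marrow transplantation, and each sample was a pool of animals. The labels do not say which promoter drove the mutant, what the control animals carried, or the ages of the animals. Each sample was read on 1 array, from about 5 ng of amplified RNA.

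Hox genes encode transcription factors that bind DNA through a homeodomain, often together with Pbx and Meis proteins. In blood, genes of the middle and 5′ part of the Hoxa cluster are active in stem and early progenitor cells and are switched off as cells mature, and persistent activity of Hoxa9 with Meis1 drives leukaemia in mice. Leukaemias with mutant nucleophosmin are known for high expression of Hoxa and Hoxb genes.

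The deposited values are log2 expression units after RMA, which subtracts background, puts arrays on a common scale and combines probes into 1 value per probe set. Arrays with the same replicate number were tied: in 100% of probe sets the mean of the NPMc+ and the control array was the same in pairs 1, 2 and 3 within 0.001 log2 units. A gene that was higher in NPMc+ in every pair therefore has groups that do not overlap, by construction, and the spread of a gene lies in its 3 differences within pairs. The medians of the 6 arrays were 3.90 to 3.99 log2 units, and precision is limited by having 3 arrays a group. Xist, transcribed from the inactive X, differed by -5.44, -5.39 and 0.48 log2 units in pairs 1, 2 and 3 (NPMc+ minus control), so the pools differed in sex-linked transcripts, and the part of this in the results below was not tested. Npm1 averaged 11.57 in NPMc+ and 11.76 in control samples, and whether its probe set reads the mutant transcript is not given in the labels.

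Promoter sequences from RefSeq (GRCm38.p6, 250 bases before to 50 after an annotated start) were matched for 8 of the 9 genes, all but Hoxa4. The promoters of Hoxa5 and Hoxa9 are shown because they hold the most and the fewest CG dinucleotides among the matched promoters, 29 and 4, while the expression differences of these genes were both above 1 log2 unit. The median over 32851 promoters of the same length was 7. CG dinucleotides are in capitals. Both promoters are on the minus strand.
Hoxa5, chr6:52204538-52204837: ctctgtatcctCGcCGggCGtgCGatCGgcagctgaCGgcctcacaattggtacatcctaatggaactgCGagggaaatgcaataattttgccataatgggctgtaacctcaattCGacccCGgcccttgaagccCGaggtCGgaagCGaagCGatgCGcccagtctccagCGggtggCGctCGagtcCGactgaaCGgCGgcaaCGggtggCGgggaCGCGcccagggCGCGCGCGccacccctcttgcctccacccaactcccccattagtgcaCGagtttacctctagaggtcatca
Hoxa9, chr6:52227321-52227620: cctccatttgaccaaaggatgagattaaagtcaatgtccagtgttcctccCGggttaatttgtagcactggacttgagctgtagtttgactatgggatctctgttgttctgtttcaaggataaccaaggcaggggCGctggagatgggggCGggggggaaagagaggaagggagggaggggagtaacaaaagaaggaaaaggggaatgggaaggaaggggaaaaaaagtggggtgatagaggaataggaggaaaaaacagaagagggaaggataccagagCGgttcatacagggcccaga

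The Hoxa2 promoter is shown because it was the 1 promoter of the set with a match to the letters TGATNNAT, bound by Hox with Pbx proteins. It also had a match to TGACAG, bound by Meis proteins. Both are in capitals, the first as its reverse complement, and they do not overlap. It lies on the minus strand.
Hoxa2, chr6:52164782-52165081: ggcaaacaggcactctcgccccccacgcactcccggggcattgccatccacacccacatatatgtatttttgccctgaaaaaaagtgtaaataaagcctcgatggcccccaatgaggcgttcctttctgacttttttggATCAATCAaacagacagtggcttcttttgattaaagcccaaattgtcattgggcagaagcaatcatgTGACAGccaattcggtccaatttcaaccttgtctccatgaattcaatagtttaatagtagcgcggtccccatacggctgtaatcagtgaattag
Searched on both strands, TGATNNAT is found in 8.85% of all 32851 promoters and TGACAG in 19.2%. TGACAG was also matched in the promoter of Hoxa3, and neither was found in those of Hoxa5, Hoxa6, Hoxa7, Hoxa9, Hoxa10 and Hoxa11. The TATA box letters TATAAA, searched likewise, were matched in 1 gene, at a second start of Hoxa10, and in 13.6% of all promoters. The Hoxa10 match was the reverse complement, 160 bases before that start. These are matches of letters in a window of 300 bases and do not show binding.

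Hoxa2, Hoxa5, Hoxa6, Hoxa7 and Hoxa9 were each 1.95-fold to 2.51-fold higher in the NPMc+ samples, Hoxa10 was 1.37-fold higher, and Hoxa3 and Hoxa4 differed by little. The differences of the 8 genes had a median of 1.01 log2 units, against 0.03 over all genes tested. In limma with the pair as a block, 6 of the 8 had an unadjusted p under 0.05, all 6 of them higher, where 5.95% of all genes tested were higher by that rule. After Benjamini-Hochberg adjustment over all genes, 0 of the 8 passed the threshold of 0.05 in limma, nor did any of the 16635 genes (0%), of which 1492 had an unadjusted p under 0.05. The adjusted p-values of the 6 genes were 0.266 to 0.552. A limma fit without the block put 5 of the 8 past the adjusted threshold, as it did 828 of all genes, but it counts the tied arrays as independent. The genes were chosen with earlier results of these data known, so these counts describe the cluster and do not test the choice. In a bulk sample, more cells that express a gene and more RNA per cell cannot be told apart.

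The genes are described in order from the 3′ end of the cluster. Hoxa2, known for its role in patterning the hindbrain and the second branchial arch, had 5.17, 4.87 and 5.37 log2 units in NPMc+ samples 1, 2 and 3, against 3.96, 4.27 and 3.77 in control samples. All 3 NPMc+ values lay above all control values, and the gap was narrowest in pair 2. Its difference was 1.14 ± 0.24 log2 units (SE, n = 3 pairs), or 2.20-fold (limma adjusted p 0.340).

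Hoxa3, which is needed for the thymus and parathyroid glands, had 4.02, 4.08 and 3.82 log2 units in NPMc+ samples, against 3.76, 3.70 and 3.96 in control samples. The groups overlapped, since in pair 3 the NPMc+ sample was the lower one. Its difference was 0.17 ± 0.19 log2 units (SE), with a 95% interval of -0.30 to 0.63. Hoxa4, which acts in patterning of the neck vertebrae, had 3.67, 4.10 and 3.64 log2 units in NPMc+ samples, against 3.94, 3.51 and 3.97 in control samples. Here the NPMc+ sample was higher in pair 2 alone. The mean difference was near 0, with a 95% interval of -0.57 to 0.57 log2 units, which leaves room for a change of up to 1.49-fold in either direction. The signals of Hoxa3 and Hoxa4, with means of 3.89 and 3.81 over the 6 arrays, were close to the median of all probe sets, 3.95. So were the control means of Hoxa2 and Hoxa10, 4.00 and 3.82, so that folds of these genes start from a low signal. The median over the genes tested, many probe sets having no gene, was 5.11. The control means of Hoxa5, Hoxa6, Hoxa7 and Hoxa9, at 4.68, 4.46, 4.58 and 5.03, also lay below that.

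Hoxa5, a gene with roles in lung development and in the choice between myeloid and erythroid fates of progenitors, had the highest difference of the cluster. Its values were 6.23, 5.86 and 5.92 log2 units in NPMc+ samples, against 4.45, 4.82 and 4.76 in control samples. Every NPMc+ value was more than 1 unit above every control value. The difference was 1.33 ± 0.21 log2 units (SE), or 2.51-fold, with a limma adjusted p of 0.266 and a 95% interval of 1.75-fold to 3.58-fold. Hoxa6, its neighbour, had 5.52, 5.78 and 5.95 log2 units in NPMc+ samples, against 4.70, 4.43 and 4.26 in control samples. The groups stood apart here too, with the narrowest gap in pair 1. The difference was 1.29 ± 0.22 log2 units (SE), or 2.44-fold (limma adjusted p 0.269).

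Hoxa7, a homeobox gene active in blood progenitors, was the steadiest of the 8 by the probe set assigned to it alone. It had 5.48, 5.58 and 5.56 log2 units in NPMc+ samples, against 4.64, 4.53 and 4.56 in control samples. The 3 differences of 0.838, 1.05 and 0.996 had an SD of 0.11, against a median SD of 0.33 over all genes tested. The mean difference was 0.96 ± 0.18 log2 units (SE), or 1.95-fold (limma adjusted p 0.296). This SE is above the SD of the gene's own 3 differences because limma moderates it with the spread of all genes.

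Hoxa9, a regulator of stem cell renewal and a leukaemia gene in mice and humans, had 6.27, 6.24 and 5.75 log2 units in NPMc+ samples, against 4.85, 4.88 and 5.36 in control samples. Pairs 1 and 2 differed by 1.42 and 1.36 and pair 3 by 0.39, which made it the most variable of the 8 with an SD of 0.58. Its difference was 1.06 ± 0.25 log2 units (SE), or 2.08-fold (limma adjusted p 0.372).

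Hoxa10, which acts in progenitors and in the female reproductive tract, had 4.37, 4.14 and 4.31 log2 units in NPMc+ samples, against 3.72, 3.95 and 3.78 in control samples. The groups did not overlap, but the gap in pair 2 was 0.20. The difference of 0.46 ± 0.19 log2 units (SE) had a 95% interval that begins just above 0, at 0.0056, with an unadjusted p of 0.0479 in limma. That p was 0.214 without pair 1, 0.144 without pair 3 and 0.0367 without pair 2, so the call of Hoxa10 needed pairs 1 and 3. Hoxa11 could not be read alone: its probe sets shared with Hoxa11os averaged 2.83 and 3.17 in NPMc+ and 2.94 and 3.16 in control samples, with mixed signs across pairs.

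**Figure D1:**
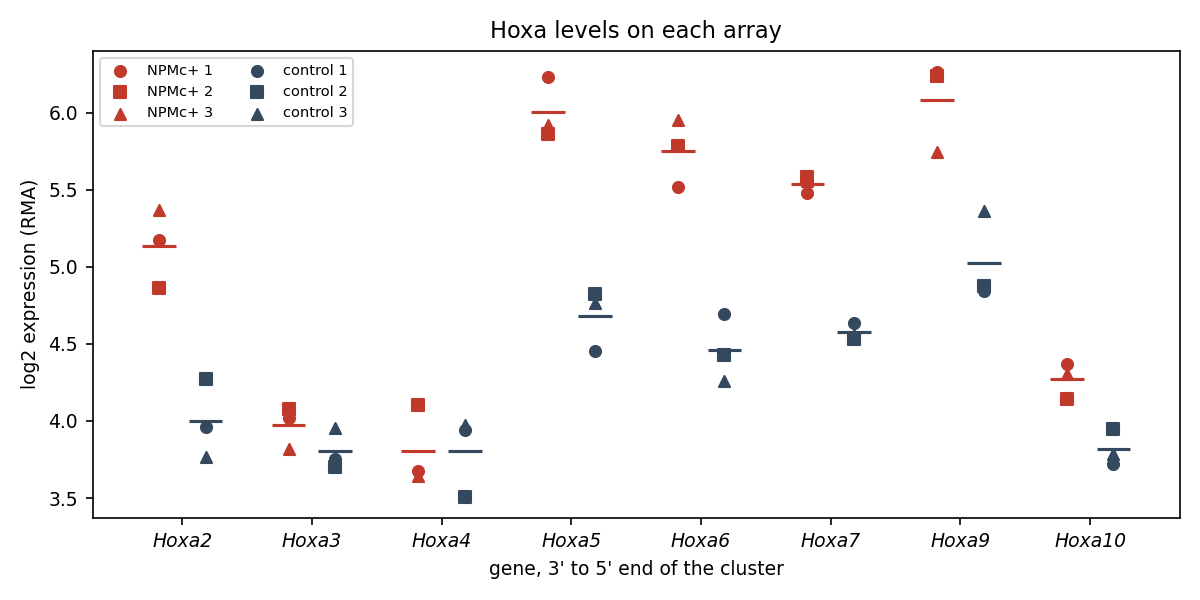
RMA log2 expression of the 8 Hoxa genes on each array, with NPMc+ in red on the left and control in dark blue on the right of each gene, marker shapes for replicate numbers and lines for group means. The groups stand apart for Hoxa2, Hoxa5, Hoxa6, Hoxa7, Hoxa9 and Hoxa10 and overlap for Hoxa3 and Hoxa4; heights of different genes come from different probe sets and are not comparable.

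The groups did not overlap for 6 of the 8 genes, all higher in NPMc+, while 17.4% of all genes tested were higher in 3 of 3 pairs. By size of difference the order was Hoxa5, Hoxa6, Hoxa2, Hoxa9, Hoxa7, Hoxa10, Hoxa3 and Hoxa4. Among the first 5, no neighbours in this order kept their order in all 3 pairs, so their differences were not separated by more than the spread between pairs. The gap between Hoxa7 and Hoxa10 was the 1 step that held in 3 of 3 pairs, with a mean of 0.50 log2 units and a range of 0.19 to 0.85. Hoxa10 and Hoxa3 were ordered alike in 2 of 3 pairs, as were Hoxa3 and Hoxa4. Along the cluster the 2 genes with the least difference lay between Hoxa2 and Hoxa5.

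No single pair carried the differences. The median of the 8 genes was 0.83, 0.82 and 0.76 log2 units in pairs 1, 2 and 3. The lowest difference of a gene fell in pair 1 for 2 genes, in pair 2 for 3 and in pair 3 for 3. In pair 2 Hoxa2, Hoxa5 and Hoxa10 had their lowest difference, and Hoxa3, Hoxa4 and Hoxa7 their highest. Pairs 1 and 2 are those in which Xist differed by more than 5 log2 units, and pair 3 is the one in which it differed by 0.48. The Y-linked gene Uty differed by 4.68, 0.93 and 0.35 log2 units in pairs 1, 2 and 3. Kdm5d and Eif2s3y, also Y-linked, differed by 3.48, 1.29 and -0.67 and by 5.49, 0.36 and -0.79.

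**Figure D2:**
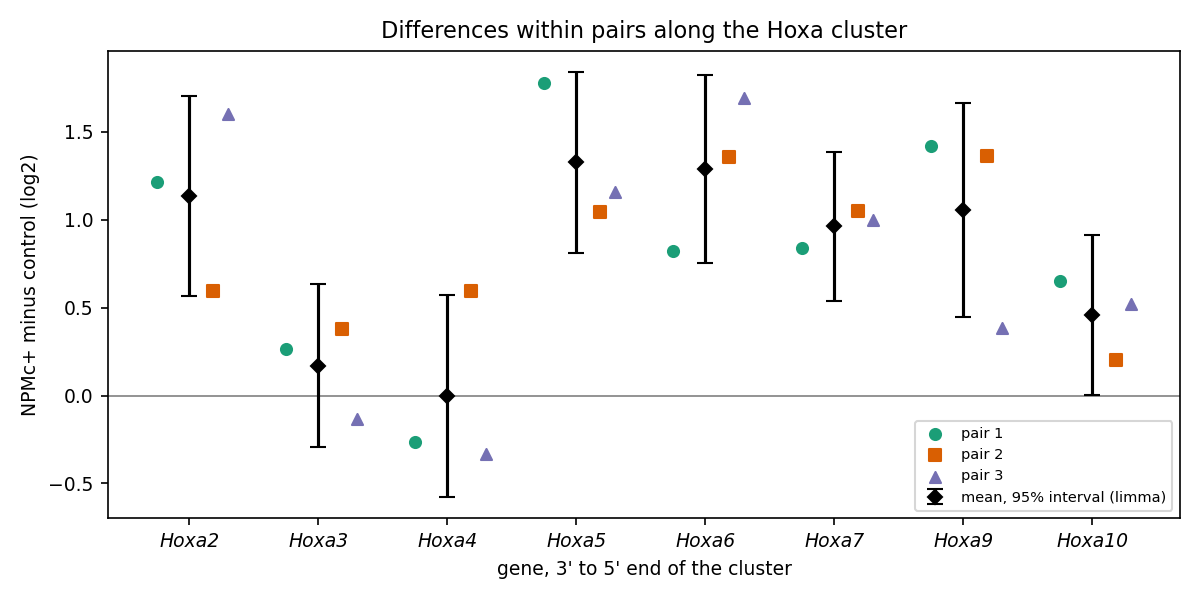
NPMc+ minus control in log2 units for the 8 Hoxa genes in order from the 3′ to the 5′ end of the cluster; coloured markers are the 3 pairs, black diamonds the means with 95% intervals from limma. The intervals of Hoxa3 and Hoxa4 span 0, that of Hoxa10 begins at 0.0056, and the means of the other 5 genes lie between 0.96 and 1.33.

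Seen against all 16635 genes tested, 0.769% had a higher difference than Hoxa7 and 0.168% a higher one than Hoxa5, whereas Hoxa4 lay near the middle. These shares are descriptions, since a large difference can come with a large spread.

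**Figure D3:**
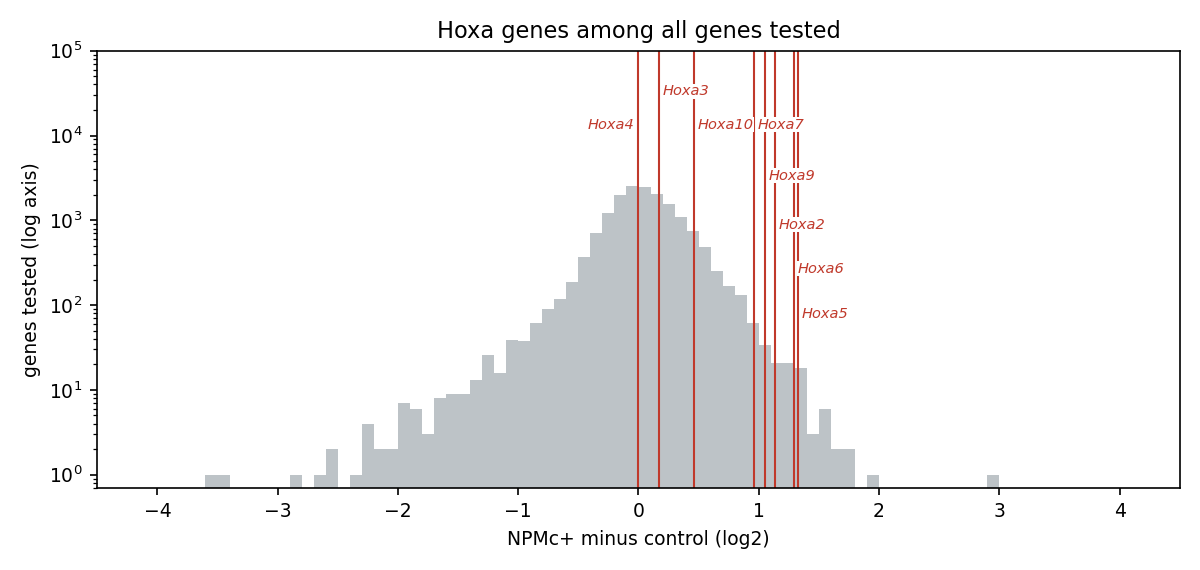
Histogram of NPMc+ minus control in log2 units over the 16635 genes tested, with a log axis for the number of genes; red lines mark the 8 Hoxa genes. Hoxa7, Hoxa9, Hoxa2, Hoxa6 and Hoxa5 lie in the upper tail between 0.96 and 1.33, and Hoxa4 and Hoxa3 near the centre.

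RefSeq spans overlap within the cluster. The longest annotated span of Hoxa3 covers Hoxa4, Hoxa5 and Hoxa6, and that of the noncoding RNA Hoxaas3 overlaps Hoxa3, Hoxa5 and Hoxa6. Which of these transcripts each probe set reads was not tested. Hoxaas3 itself differed by 0.56, 1.35 and -0.19 log2 units in pairs 1, 2 and 3, a mean of 0.57 ± 0.30 (SE). Hoxa5 and Hoxa6 were higher in every pair, and the part of Hoxaas3 in their values was not tested.

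Genes beside the cluster were read as a list of 13, of which 6 were tested. None had an unadjusted p under 0.05 in limma, against 5.95% and 3.02% of all genes, and their median difference was 0.18 log2 units. Hoxa13, the last gene at the 5′ end and a regulator of limb and genital development, averaged 3.17 in NPMc+ and 3.35 in control samples, a difference of -0.18 ± 0.18 (SE). Of the flanking genes, Snx10, a sorting nexin, differed by 0.37 ± 0.19 and was higher in 3 of 3 pairs, Skap2, a signalling adaptor, differed by 0.25 ± 0.21 and Evx1, a homeobox gene, by 0.11 ± 0.18.

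Among the Hox cofactors of the Meis, Pbx and Pknox families, 1 of 7 tested had an unadjusted p under 0.05, where 5.95% of all genes were higher and 3.02% lower by that rule. That gene was Meis1, the partner of Hoxa9 in leukaemia, which was 1.81-fold higher with a difference of 0.86 ± 0.23 log2 units (SE, limma adjusted p 0.411). Pbx3, another partner of Hoxa9, differed by -0.23, 1.53 and 0.35 log2 units in pairs 1, 2 and 3. The median of the list was 0.05.

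The other Hox clusters were read in the same way. In the Hoxb cluster 1 of 8 genes tested had an unadjusted p under 0.05 in the higher direction, against 5.95% of all genes. That gene, Hoxb5, which marks long-term stem cells in mouse marrow, differed by 0.70, 1.88 and 0.70 log2 units in pairs 1, 2 and 3, a mean of 1.09 ± 0.28 (SE), within the range of the Hoxa genes. The median difference was 0.27 log2 units, with pair medians of 0.25, 0.30 and 0.07. The median was -0.26 for the 3 Hoxc genes tested and -0.09 for the 8 Hoxd genes, with 0 genes at an unadjusted p under 0.05 in either. Whether the clusters differ from the Hoxa genes was not tested.

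Genes known to act on Hox transcription were read as 2 lists. Of 18 tested activators, among them the histone methyltransferase Kmt2a and its partners, 1 had an unadjusted p under 0.05, a share near the 5.95% higher and 3.02% lower over all genes, and the list had a median of 0.14 log2 units. That gene was Men1, which encodes menin, the protein that tethers Kmt2a to Hox promoters, at 6.95 in NPMc+ and 6.21 in control samples, 1.67-fold higher (limma adjusted p 0.447). Of 18 tested Polycomb genes, which hold Hox genes silent, 0 were higher and 0 lower, with a median of 0.12.

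Of 19 tested genes reported downstream of Hoxa9 and Meis1, 8 had an unadjusted p under 0.05 in limma, 6 of them higher and 2 lower, where 5.95% of all genes were higher and 3.02% lower, and 0 passed the adjusted threshold. The median was 0.29 log2 units. The ETS factor gene Erg averaged 8.67 in NPMc+ and 7.77 in control samples, 1.87-fold higher. The cytokine receptor gene Flt3 was 1.89-fold higher, Sox4, a transcription factor gene of immature cells, 1.67-fold higher and the kinase gene Cdk6 1.53-fold higher. Id2, an inhibitor of E proteins, averaged 6.02 in NPMc+ and 7.10 in control samples, a difference of -1.08 ± 0.19 log2 units (SE). Cybb, a subunit of the phagocyte oxidase, differed by -1.67, -1.92 and -0.10 in pairs 1, 2 and 3.

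The 5 genes outside the cluster whose 3 pair differences lay closest to the Hoxa pair medians were Smad5, Muc13, Gstm4, Mdga1 and Tnrc18. Likeness was the Euclidean distance over the 3 pairs, which was 0.054 log2 units for Smad5, a mediator of BMP signalling, and 0.148 for Tnrc18. Smad5 differed by 0.81, 0.77 and 0.78 log2 units and Tnrc18 by 0.93, 0.83 and 0.65. With 3 values per gene this measure describes the size and evenness of a difference.

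Markers of the sorted cells and of other cell types also differed in these samples, and their counts stand against 5.95% of all genes for higher and 3.02% for lower members by the same rule. Of 14 LT-HSC markers tested, 7 had an unadjusted p under 0.05, all of them higher, and their summed signal (log2 values turned back to a linear scale, in arbitrary units) was 2692 to 2960 in NPMc+ and 1650 to 1823 in control samples. Meis1 and Hoxb5 are also in that list. Its brightest marker, Angpt1, averaged 10.02 log2 units in NPMc+ and 9.05 in control samples, and it weighs most in the sums. By sign, 12 of the 14 differed upward, with Procr and Tek near 0 at 0.08 and 0.03. The 2 that differed downward, Fgd5 and Robo4, did so by -0.20 and -0.22 log2 units. Of 8 megakaryocyte markers 7 were higher, with sums of 903 to 1246 in NPMc+ and 428 to 598 in control samples. Of 9 B cell markers 7 were lower, with sums of 257 to 292 in NPMc+ and 593 to 645 in control samples, and of 8 erythroid markers 6 were lower, with sums of 484 to 588 in NPMc+ and 838 to 1015 in control samples.

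Of 12 neutrophil and monocyte markers 5 were lower and 0 higher, and the sums overlapped at 16925 to 21058 in NPMc+ and 21032 to 28563 in control samples. Of 9 T and NK cell markers 5 were lower and 1 higher, and the median of the list was -1.27 log2 units. Their sums overlapped, at 1247 to 1427 in NPMc+ and 1162 to 1366 in control samples, with most of the signal from the 1 higher marker, Nkg7, at 10.25 log2 units in NPMc+ and 9.77 in control samples. The neutrophil list had medians of -1.34, -0.90 and -0.02 log2 units in pairs 1, 2 and 3. The medians were 0.95, 0.99 and 0.91 for megakaryocyte markers and 0.35, 0.46 and 0.64 for LT-HSC markers. They were -1.32, -1.21 and -1.84 for B cell markers and -1.23, -0.37 and -0.72 for erythroid markers. T and NK cell markers had -0.37, -0.61 and -1.34, and the Hoxa genes 0.83, 0.82 and 0.76. Among the Hoxa genes, Hoxa3, Hoxa4 and Hoxa9 had their lowest difference in pair 3, and Hoxa2 and Hoxa6 their highest. RMA values have no true zero, so no marker can be said to be at 0. The part of these cell types in the Hoxa differences was not tested.

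**Figure D4:**
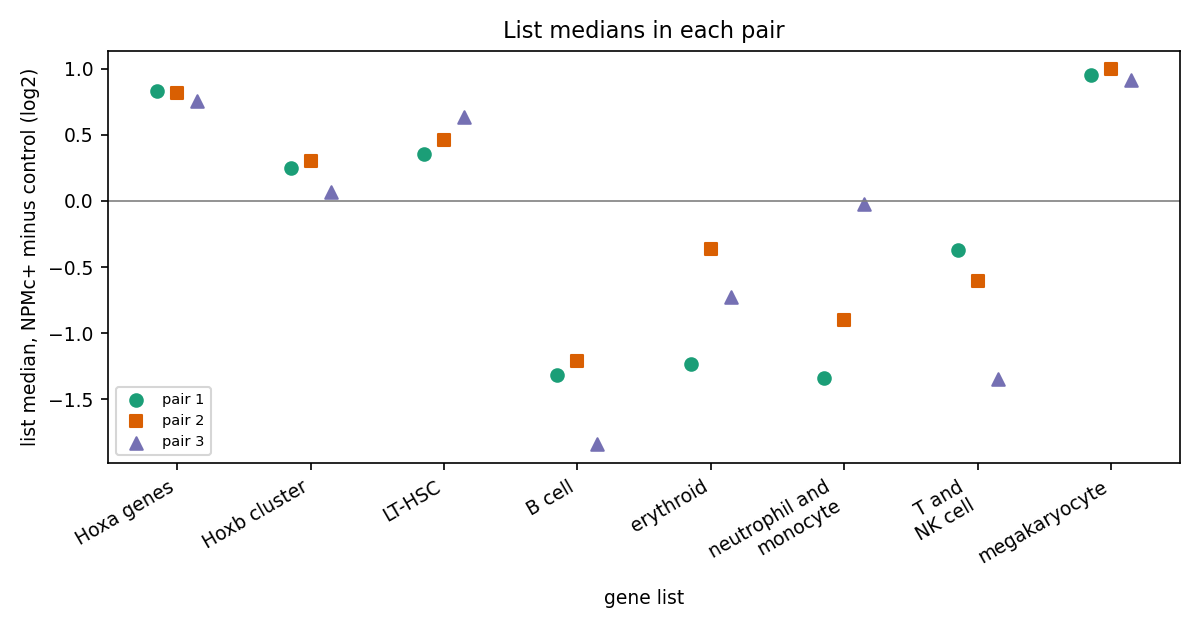
Median difference of each gene list in log2 units, NPMc+ minus control, in pairs 1, 2 and 3 (marker shape and colour). The Hoxa genes lie between 0.76 and 0.83 in every pair, the megakaryocyte markers between 0.91 and 0.99 and the LT-HSC markers between 0.35 and 0.64. The B cell markers lie between -1.84 and -1.21, the erythroid markers between -1.23 and -0.37 and the T and NK cell markers between -1.34 and -0.37. The neutrophil and monocyte markers range from -1.34 in pair 1 to -0.02 in pair 3.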

How the data were processed

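Per the submitters' processing notes, the deposited log2 values come from RMA, with no version given. No later step is named there. The shared pair means described above show that an effect of the replicate number had been taken out (correlation of same-numbered deviations from group means, -1 in each of the 3 pairs; largest range of pair means 6.5e-05), so the replicate number was kept as a block.

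Gene names came from a platform annotation. Of 41345 probe sets, 23521 had 1 symbol, 1814 several and 16010 none; probe sets with several were assigned to no gene. Each gene took its probe set of highest mean. Differences are NPMc+ minus control, fitted in limma 3.58.1 (two-sided moderated test from lmFit and eBayes, 2 residual degrees of freedom and 4.54 prior) in R 4.3.3 over 16635 genes, with Benjamini-Hochberg adjustment at a threshold of 0.05. The scripts were tested on simulated data with independent normal values and equal pair means, which checks the code and not the p-values of these pools. The p-values set the mean difference against the spread of the 3 differences within pairs of pools, moderated by the spread of all genes. Named genes were the 8 Hoxa genes, listed neighbours and, from other lists, up to 6 genes of smallest unadjusted p under 0.05. Further list members were given as levels. Pbx3, the neighbours, the Y-linked genes and the LT-HSC markers were named after their values were seen. The members and lists were chosen with earlier results of these data known. Figures used matplotlib 3.10.9.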

Additional observations from a re-analysis of the deposited data

Results flagged for a closer look

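A pair of probe sets was left out of the gene values because the annotation lists 2 symbols for each, yet all their NPMc+ values lay above all control values. The probe set listed for Mira and Hoxa7 had 8.41, 7.97 and 7.96 log2 units in NPMc+ samples, against 6.19, 6.64 and 6.65 in control samples. Its mean difference of 1.62 log2 units, or 3.07-fold, was wider than that of each of the 8 Hoxa genes, and no test was run on it. The differences in pairs 1, 2 and 3 were 2.22, 1.32 and 1.31, with an SD of 0.52. The evenness of Hoxa7 across pairs given above thus holds for its other probe set. Which of the RNAs it reads is not given by the annotation. The probe set listed for Hoxa3 and 5730446D14Rik had 4.69, 4.52 and 4.55 in NPMc+ samples, against 4.28, 4.45 and 4.42 in control samples, a mean difference of 0.20 that was not tested. Of all genes tested, 17.4% were higher in 3 of 3 pairs.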

How the results depend on the processing

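Under 9 alternatives, 5 or 6 Hoxa genes had an unadjusted p under 0.05 in the higher direction. With the filter at the 50th percentile 5 of the 8 genes were left, and all 5 were higher by that rule. The share of all genes tested that were higher by it also moved, from 4.004% without pair 2 to 15.03% without the replicate block. Of the 8 genes Hoxa4 was the 1 whose sign changed. Hoxa2, Hoxa5, Hoxa6, Hoxa7 and Hoxa9 were higher at that threshold under each of the 9. The limma fit without the replicate block counts degrees of freedom that the tied values do not hold, and it called 828 genes at the adjusted threshold, where the blocked fit called 0; these 5 genes were among the 828, with adjusted p-values of 0.00877 to 0.0443, and Hoxa10 was not, at 0.0570. Leaving out a pair gave 0 to 24 genes past the threshold (24 without pair 3). The median difference of the Hoxa genes was 0.91 to 0.95 log2 units when a pair was left out and 0.95 after quantile normalization. It was 1.14 with a filter at the 50th percentile, which removed Hoxa3, Hoxa4 and Hoxa10. That filter used the mean over all 6 arrays, and Hoxa2 passed it only through its NPMc+ values. The control mean of Hoxa2, 4.00, lay below the mean of 4.05 at which Hoxa10 was removed. This setting is therefore no check on Hoxa2, whose own difference is the median of 1.14. The mean difference of Hoxa4, near 0 with all pairs, was 0.13 without pair 1, 0.16 without pair 3 and -0.30 without pair 2. These are means of what remains of its pair differences of -0.27, 0.59 and -0.33 in pairs 1, 2 and 3. After quantile normalization it was 0.021, and the cause of that change was not tested.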
